A study of Mus musculus with 6 samples.

Results

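The genes described here encode the enzymes that hydroxylate proline and lysine in newly made collagen, together with Serpinh1, which encodes the collagen chaperone HSP47. They comprise the 3 prolyl 4-hydroxylase alpha subunits (P4ha1, P4ha2 and P4ha3), the 3 lysyl hydroxylases (Plod1, Plod2 and Plod3), the 3 prolyl 3-hydroxylases (P3h1, P3h2 and P3h3) and Serpinh1. These 10 genes were taken by name from a table of 55487 gene identifiers, and all 10 were among the 19015 genes that carried enough counts to be tested. Bulk polyA RNA-sequencing had been performed on cells from C57BL/6 mouse skin, kept for 48 hours in medium with normal glucose (5 mmol/L, 3 samples) or high glucose (20 mmol/L, 3 samples), the latter chosen by the study to mimic hyperglycemia. No other treatment or allele distinguished the groups, and both carried the same genotype. The cells came from skin pooled from 4 to 6 mice aged 2 to 3 months, were enriched with magnetic beads against CD31 and were used at passages 1 to 6, so that an isolation mixed cells of several animals. The study counts its replicates in this experiment as mice, but neither the labels nor the methods say whether each sample came from an isolation of its own. If they did not, P values measure only the spread between these samples, which may be technical.

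Collagen chains are modified in the endoplasmic reticulum before they fold. Prolyl 4-hydroxylase, a tetramer of catalytic alpha subunits and protein disulfide isomerase (P4hb), makes the 4-hydroxyproline that keeps the triple helix stable at body temperature. Lysyl hydroxylases make the hydroxylysine that carries sugars and later forms cross-links between collagen molecules, prolyl 3-hydroxylases modify a small number of prolines, and HSP47 binds the folded helix on its way to the Golgi. The hydroxylases use iron, ascorbate, oxygen and 2-oxoglutarate, and P4ha1, P4ha2 and Plod2 are known targets of the hypoxia-inducible factors. In skin, fibroblasts are the main source of fibrillar collagen, and endothelial cells contribute chains of the basement membrane.

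The samples held between 120192466 and 146881356 counts, and the 10 genes had between 976 and 304601 counts in a sample. Levels are given as CPM (counts scaled to a common library size) after TMM scaling, a correction for differences in library composition, and as CPM per kilobase (kb) of merged exons where genes are compared with one another. The 10 genes with the most counts held 7.86% to 8.18% of each library in normal glucose and 11.4% to 11.6% in high glucose. The cells were labelled as endothelial, but 7 of the 13 endothelial markers examined had fewer than 30 counts in every sample. Pecam1, which encodes CD31, had 9 to 19 counts, and Tie1, Robo4 and Cldn5 had at most 4. The summed level of the 13 markers was 73.7 to 77.0 CPM in normal glucose and 57.0 to 57.6 CPM in high glucose, with Flt1 the most abundant. By contrast, 11 of 14 fibroblast markers exceeded 100 CPM in every sample, and their sum was 12144 to 12399 CPM in normal glucose and 15244 to 16141 CPM in high glucose. In bulk RNA, fewer cells of a type and less RNA per cell cannot be told apart.

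In high glucose, 6 of the 10 genes rose (P4ha3, Plod2, Plod3, P3h2, P3h3 and Serpinh1), 2 fell (P4ha1 and P4ha2) and 2 did not pass the test (Plod1 and P3h1), at an adjusted P under 0.05 from edgeR's quasi-likelihood test over all tested genes. Of all tested genes, 16.9% were called higher, 14.5% lower and 31.4% in either direction. For all 10 genes the 3 samples of one group lay outside the range of the other, 7 of them higher and 3 lower in high glucose. The groups were likewise apart for 46.4% of all tested genes, with 25.1% higher and 21.3% lower. The median log2 fold change of the 10 genes was 0.27, against 0.0062 over all tested genes. Taken singly, each gene had an exact permutation P of 0.1, the smallest that 3 samples against 3 allow. Only P3h2 and Plod2 changed by more than 1.5-fold.

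**Figure D1:**
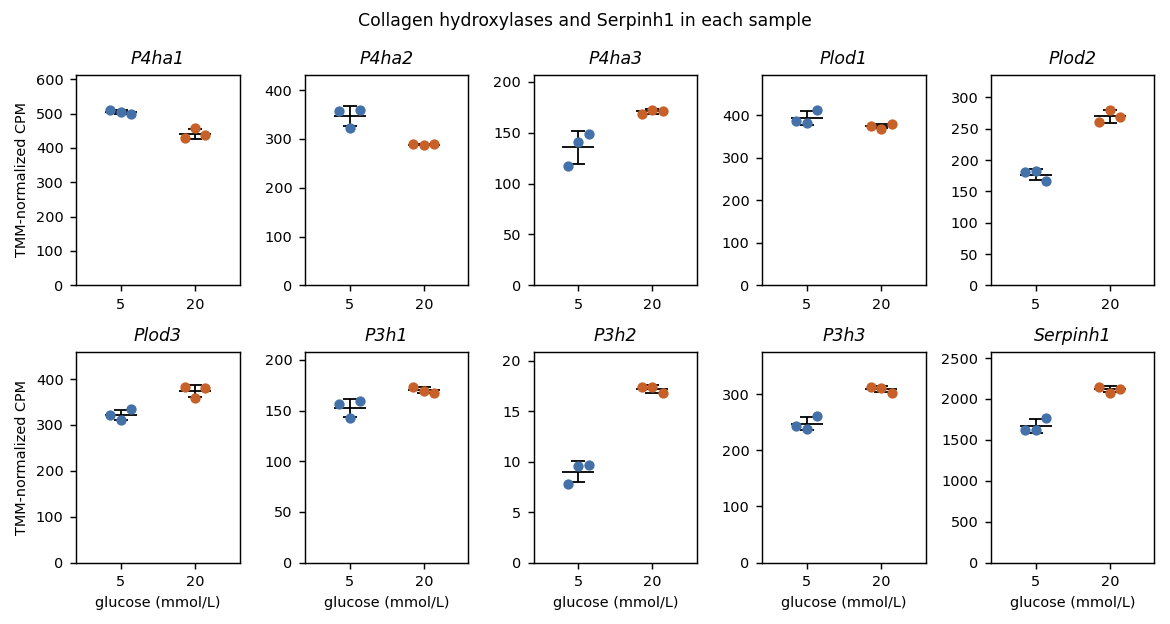
TMM-normalized CPM (vertical axes, each starting at 0) of the 10 genes in normal (5 mmol/L) and high (20 mmol/L) glucose. Points are single samples, dashes the group means and bars the SD (n = 3); P4ha1, P4ha2 and Plod1 are lower in every high glucose sample than in every normal glucose sample, and the other 7 genes are higher.

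The prolyl 4-hydroxylase alpha subunits did not move together. P4ha1, the most abundant of the 3 and the form found in most cell types, fell by 12.5%. P4ha2, the form best known from cartilage and endothelium, fell by 16.8%. P4ha3, the least abundant of the 3, rose 1.26-fold. P4ha1 (ENSMUSG00000019916, GRCm38 chromosome 10, 59323296 to 59373304, plus strand) measured 511, 504 and 499 CPM in normal glucose and 429, 458 and 437 CPM in high glucose. Its log2 fold change was -0.19 (SE 0.049, 95% interval -0.30 to -0.082, adjusted P = 0.0140). The gap between the lowest normal glucose sample and the highest high glucose sample was 40.9 CPM, wider than the SD of either group (6.22 and 14.8 CPM). The call was lost without high glucose replicate 1 or 3 (log2 fold changes -0.19 and -0.20, adjusted P = 0.0595 and 0.0579), while scaling by library size alone gave -0.31 (adjusted P = 7.4e-04).

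P4ha2 (ENSMUSG00000018906, chromosome 11, 54100095 to 54131665, plus strand) measured 357, 323 and 360.0 CPM in normal glucose and 289.8, 287 and 289 CPM in high glucose. The 3 high glucose samples were nearly alike, with an SD of 1.71 CPM against 20.3 CPM in normal glucose, and all lay below the lowest normal glucose sample. The log2 fold change of P4ha2 was -0.27 (SE 0.055, 95% interval -0.39 to -0.14, adjusted P = 0.00467). P4ha3 (ENSMUSG00000051048, chromosome 7, 100285520 to 100319699, plus strand) measured 117, 140.3 and 149 CPM in normal glucose and 168, 173 and 172 CPM in high glucose. Normal glucose replicate 1 was the lowest of the 6, and the high glucose samples were again closer together (coefficients of variation 12.0% and 1.26%). The log2 fold change of P4ha3 was 0.34 (SE 0.079, 95% interval 0.16 to 0.51, adjusted P = 0.00896). Without normal glucose replicate 1 it was 0.22 (adjusted P = 0.00348), and with scaling by library size alone it was 0.22 and missed the threshold (adjusted P = 0.0507).

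The 250 bases before the RefSeq start sites of these 3 genes are shown because P4ha1 and P4ha2 are known hypoxia-factor targets and moved opposite to P4ha3. The choice was thus made after the changes had been seen. Capitals mark ACGTG or GCGTG, the core of the hypoxia response element, read on either strand (CACGT or CACGC where it lies on the other strand). ACGTG is also part of the E-box CACGTG. The windows are P4ha1 chr10:59323046-59323295, P4ha2 chr11:54100674-54100923 and P4ha3 chr7:100285270-100285519 (GRCm38.p6, all plus strand), and that of P4ha2 lies inside the gene as GENCODE draws it.
P4ha1: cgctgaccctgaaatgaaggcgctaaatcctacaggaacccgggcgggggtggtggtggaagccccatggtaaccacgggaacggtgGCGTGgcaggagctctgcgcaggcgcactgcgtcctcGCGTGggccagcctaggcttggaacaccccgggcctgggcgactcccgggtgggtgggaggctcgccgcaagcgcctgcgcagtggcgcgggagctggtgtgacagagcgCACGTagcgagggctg
P4ha2: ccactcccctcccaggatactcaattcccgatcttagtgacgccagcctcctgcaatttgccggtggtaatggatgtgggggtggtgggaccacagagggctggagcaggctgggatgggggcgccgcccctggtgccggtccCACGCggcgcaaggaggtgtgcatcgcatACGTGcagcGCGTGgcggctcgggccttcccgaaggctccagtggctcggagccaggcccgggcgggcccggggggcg
P4ha3: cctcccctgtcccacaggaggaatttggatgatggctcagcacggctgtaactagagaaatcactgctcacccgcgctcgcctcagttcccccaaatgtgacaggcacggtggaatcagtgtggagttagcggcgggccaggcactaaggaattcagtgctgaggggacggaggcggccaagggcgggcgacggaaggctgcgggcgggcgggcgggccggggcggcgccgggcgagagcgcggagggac
The P4ha1 and P4ha2 windows each held 3 matches, and the P4ha3 window held 0. Among 32851 mouse promoters of the same length, 38.6% held at least 1 match and 6.58% at least 3. Those promoters were not matched to the 3 windows for base composition. Of the other genes, Plod3 held 4 matches, Plod1 and Serpinh1 held 1 each, P3h3 held 0, and P3h1 held 2 before each of its 2 start sites. Plod3 and Serpinh1 rose with matches in the window, while P4ha3 and P3h3 rose with 0. A match is only a run of letters, and these counts say nothing about whether a factor was bound. Whether matches relate to the changes was not tested. Plod2 and P3h2 were not in the promoter table.

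Among the lysyl hydroxylases, Plod2 rose 1.52-fold and Plod3 rose 1.16-fold, while Plod1 did not pass the test. Plod2, which hydroxylates lysines of the telopeptides and thereby sets the type of cross-link, measured 180.3, 183 and 167 CPM in normal glucose and 260.1, 281 and 269 CPM in high glucose. All 3 high glucose samples exceeded the highest normal glucose sample, by at least 76.9 CPM, against SDs of 8.55 and 10.3 CPM. The log2 fold change of Plod2 (ENSMUSG00000032374, chromosome 9, 92542223 to 92608428, plus strand) was 0.61 (SE 0.056, 95% interval 0.48 to 0.73, adjusted P = 2.2e-05). Among the 3212 genes called higher, 848 (26.4%) had a larger change. Plod2 shares 346 exonic bases (6.42% of its own) with Gm38391 on the opposite strand. Whether the counting used strand is not given in the sources used here, and Gm38391 had only 90 to 139 counts.

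Plod3, which also carries glycosyltransferase activity toward hydroxylysine, measured 321, 311 and 334 CPM in normal glucose and 383, 359 and 380.4 CPM in high glucose. Its groups did not overlap, and the log2 fold change of Plod3 (ENSMUSG00000004846, chromosome 5, 136987019 to 136996648, plus strand) was 0.22 (SE 0.053, 95% interval 0.099 to 0.33, adjusted P = 0.0107). The call was lost with scaling by library size alone (0.10, adjusted P = 0.150) and without high glucose replicate 1 or 3 (0.18 and 0.19, adjusted P = 0.0842 and 0.0849). Plod3 shares 529 exonic bases (11.7%) with Znhit1 on the opposite strand, whose log2 fold change was -0.13 (adjusted P = 0.318).

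Plod1, which acts mainly on lysines within the helix, measured 386, 382 and 413 CPM in normal glucose and 375, 368 and 379.8 CPM in high glucose. The groups did not overlap, but only 2.00 CPM separated them. The log2 fold change of Plod1 (ENSMUSG00000019055, chromosome 4, 147909753 to 147936767, minus strand) was -0.07 (SE 0.051, 95% interval -0.19 to 0.042, adjusted P = 0.315). As a fold, the interval runs from 0.878 to 1.03. Plod1 was called lower with scaling by library size alone (-0.19, adjusted P = 0.0136) and after removal of the trend on GC content and length (-0.12, adjusted P = 0.0321), but not with the replicate block added to the latter (-0.12, adjusted P = 0.0707).

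Within the prolyl 3-hydroxylases, P3h2 rose 1.91-fold and P3h3 rose 1.25-fold, and P3h1 did not pass the test. P3h2, the form linked to basement membrane collagens, was by far the least abundant of the 10 genes, at 7.79, 9.61 and 9.68 CPM in normal glucose and 17.4, 17.4 and 16.8 CPM in high glucose. Each high glucose sample thus held well over 1.5 times the highest normal glucose value. Its log2 fold change was 0.93 (SE 0.087, 95% interval 0.74 to 1.12, adjusted P = 2.3e-05), the largest of the 10 genes, and 447 of the 3212 genes called higher (13.9%) changed more. P3h2 (ENSMUSG00000038168, chromosome 16, 25959288 to 26105784, minus strand) shares 1055 exonic bases, or 28.4% of its exons, with Gm4524 on the opposite strand. Gm4524 had 76 to 293 counts against 976 to 2472 for P3h2, and was called higher as well (log2 fold change 0.79, adjusted P = 0.0353). Without strand, reads from the shared bases cannot be told apart.

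P3h3 (ENSMUSG00000023191, chromosome 6, 124841089 to 124857752, minus strand), which works on the lysines of type I collagen in a complex with P3h4 and lysyl hydroxylase 1, measured 243, 239 and 260.5 CPM in normal glucose and 313, 310.2 and 302 CPM in high glucose. The groups were 41.9 CPM apart, and the log2 fold change of P3h3 was 0.32 (SE 0.053, 95% interval 0.20 to 0.44, adjusted P = 0.00114), or 0.20 with scaling by library size alone (adjusted P = 0.00984). P3h1 (ENSMUSG00000028641, chromosome 4, 119232915 to 119248975, plus strand), the catalytic subunit of the complex with CRTAP and cyclophilin B, measured 156, 143 and 159 CPM in normal glucose and 173, 169.9 and 167 CPM in high glucose. All 3 high glucose values of P3h1 were the higher ones, yet its log2 fold change of 0.16 (SE 0.056, 95% interval 0.033 to 0.28) missed the threshold (adjusted P = 0.0558). P3h1 passed after removal of the trend on GC content and length (0.13, adjusted P = 0.0438), though not with the replicate block added to that setting (0.13, adjusted P = 0.0857), and without normal glucose replicate 1 (0.16, adjusted P = 0.0485). With scaling by library size alone it was 0.04 (adjusted P = 0.574).

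Serpinh1 was the most abundant of the 10 genes and rose 1.27-fold. It measured 1615, 1623 and 1772 CPM in normal glucose and 2147, 2075 and 2125 CPM in high glucose, and the groups were 304 CPM apart. The log2 fold change of Serpinh1 (ENSMUSG00000070436, chromosome 7, 99345376 to 99353239, minus strand) was 0.34 (SE 0.054, 95% interval 0.22 to 0.46, adjusted P = 9.0e-04), or 0.23 with scaling by library size alone (adjusted P = 0.00667). Of the genes called higher, 1803 (56.1%) changed more, so that Serpinh1 stood near the middle of them. For P4ha1 and P4ha2, 94.3% and 80.6% of the 2757 genes called lower changed more.

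**Figure D2:**
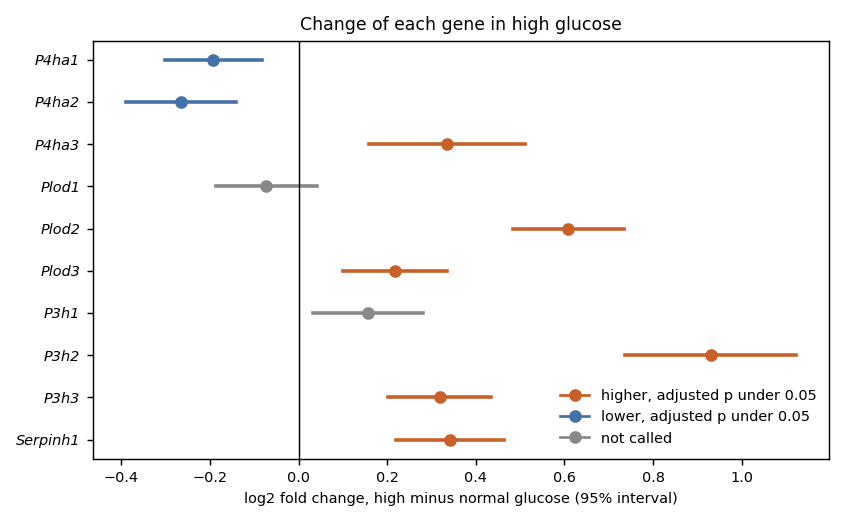
Log2 fold change in high against normal glucose (horizontal axis) with its 95% interval for each of the 10 genes, coloured by call at an adjusted P under 0.05 (edgeR, n = 3 per group). P3h2 (0.93) and Plod2 (0.61) lie farthest to the right, P4ha1 and P4ha2 lie left of 0, and Plod1 and P3h1 are not called.

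Per kb of merged exons, Serpinh1 was the most abundant gene in normal glucose (683 CPM per kb), followed by P4ha1 (123), Plod3 (71.2), P3h3 (63.0), Plod1 (58.2), P4ha2 (55.6), P4ha3 (43.2), P3h1 (39.7), Plod2 (32.8) and P3h2 (2.43), all in CPM per kb. The ranges of P3h3 and Plod1, of Plod1 and P4ha2, and of P4ha3 and P3h1 overlapped. Within each normal glucose sample, however, P3h3 exceeded Plod1 (61.9 against 57.1, 60.7 against 56.4 and 66.3 against 61.0 CPM per kb). That order depended on the length used, and with the longest transcript Plod1 stood above P3h3 (means 96.0 and 85.3 CPM per kb). The order within the other overlapping pairs varied between samples. In high glucose, the levels in CPM per kb were 866 for Serpinh1, 107 for P4ha1, 82.8 for Plod3, 78.5 for P3h3, 55.3 for Plod1, 54.5 for P4ha3, 50.0 for Plod2, 46.2 for P4ha2, 44.2 for P3h1 and 4.62 for P3h2. Here the ranges of Plod3 and P3h3 and of Plod1 and P4ha3 overlapped. Plod3 still exceeded P3h3 within each high glucose sample, while the order of Plod1 and P4ha3 varied. P4ha3 and Plod2 both stood above P4ha2 in high glucose and below it in normal glucose. The place of P4ha2 depended on the length used. With the longest transcript it was the third most abundant in normal glucose, at 113 CPM per kb. It stayed above P4ha3 and Plod2 in high glucose (94.3 against 71.1 and 73.6 CPM per kb). With that length, Plod3 averaged above P4ha1 in high glucose (114 and 109 CPM per kb), with overlapping ranges. Plod1 (91.3 CPM per kb) then exceeded P4ha3 in every high glucose sample.

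The share of each isoenzyme in the summed level of its family does not depend on the scaling between libraries. P4ha3 made up 19.5% ± 2.09 (SD, n = 3) of the P4ha sum in normal glucose and 26.2% ± 0.246 in high glucose, while P4ha1 made up 55.4% ± 1.66 and 51.6% ± 0.760, and P4ha2 25.1% ± 1.28 and 22.2% ± 0.544. These shares depend on the length used: with the longest transcript, P4ha1 made up 42.4% and 39.8%, P4ha2 38.5% and 34.3%, and P4ha3 19.1% and 25.9%. Without length scaling the difference in the P4ha1 share was -2.15 percentage points in place of -3.84 (exact permutation P = 0.2). Within the Plod family, the share of Plod2 was 20.2% ± 1.38 in normal and 26.6% ± 1.24 in high glucose, and that of Plod1 was 35.8% ± 0.794 and 29.4% ± 0.123. The share of Plod3 averaged 43.9% and 44.0%, and its groups overlapped. P3h2 accounted for 2.31% ± 0.287 and 3.63% ± 0.0265 of the P3h sum, P3h3 for 59.9% ± 0.687 and 61.6% ± 0.125, and P3h1 for 37.8% ± 0.973 and 34.7% ± 0.150. Per kb of merged exons, the groups did not overlap for any share but that of Plod3. Each of the other 8 had a 2-sided exact permutation P of 0.1, the smallest possible here (0.1125 after adjustment over the 9 shares).

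**Figure D3:**
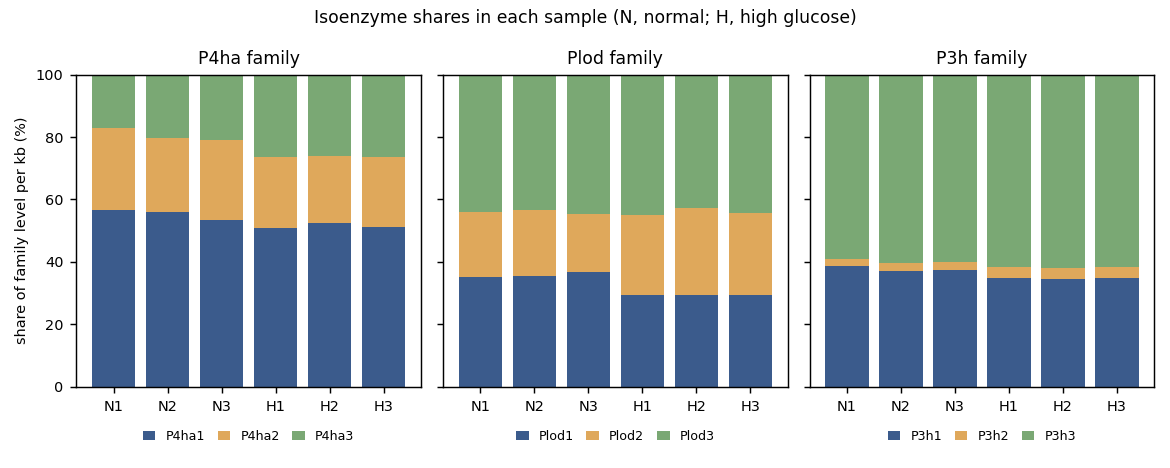
Share of each isoenzyme in its family's summed CPM per kb (vertical axis, %) in the 3 normal (N1 to N3) and 3 high (H1 to H3) glucose samples. The P4ha3 and Plod2 segments are wider in every high glucose sample, the Plod1 segment is narrower, and the Plod3 segment is similar throughout.

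Ratios between isoenzymes of a family were also taken within each sample. The log2 ratio of Plod2 to Plod1 averaged -0.83 ± 0.131 in normal and -0.15 ± 0.0706 in high glucose, a difference of 0.68. The log2 ratio of P3h2 to P3h1 differed by 0.78 between the groups, and that of P4ha3 to P4ha1 by 0.54. These groups did not overlap (exact permutation P = 0.1 each, 0.12 after adjustment over 6 ratios). P4ha2 and P4ha1, the 2 genes that fell, had a ratio whose groups overlapped (difference -0.071 on the log2 scale, exact permutation P = 0.3).

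Enzyme and substrate transcripts differed in how far they moved. The collagen chains list, 30 genes of which 29 were tested, had a summed level of 5055 ± 246 CPM per kb in normal glucose and 8849 ± 275 CPM per kb in high glucose, a difference of 75.1%. The sum of the P4ha subunits was 221 ± 4.29 CPM per kb in normal and 208 ± 3.91 CPM per kb in high glucose (a difference of -6.02%). The Plod sum was 162 ± 3.40 and 188 ± 2.09 CPM per kb (16.0%), the P3h sum 105 ± 4.92 and 127 ± 2.27 CPM per kb (21.2%), and Serpinh1 683 ± 36.1 and 866 ± 15.1 CPM per kb (26.7%). Accordingly, every one of these levels was smaller relative to collagen in high glucose. The ratio to the collagen sum in high glucose was 53.7% of that in normal glucose for P4ha, 66.2% for Plod, 69.3% for P3h and 72.4% for Serpinh1. On the log2 scale the ratio of P4ha to collagen lay between -4.55 and -4.45 in the normal glucose samples and between -5.45 and -5.36 in the high glucose samples. None of the 4 ratios overlapped between groups (differences -0.90, -0.59, -0.53 and -0.47, exact permutation P = 0.1 each).

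**Figure D4:**
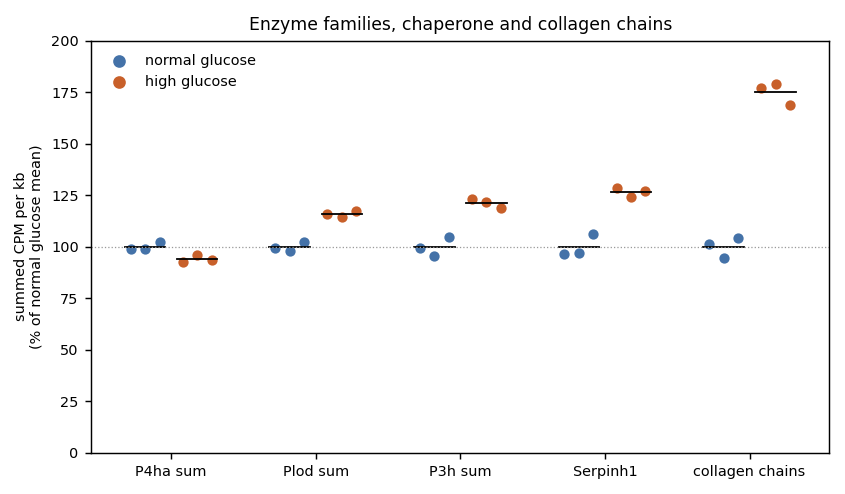
Summed CPM per kb of each enzyme family, of Serpinh1 and of the collagen chains in each sample (points), as a percentage of the normal glucose mean (vertical axis), with lines at group means. The collagen sum is 75.1% above the normal glucose mean, Serpinh1 26.7%, and the P4ha sum is slightly below it.

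Col3a1, the chain of type III collagen, weighed heavily in this sum, with 25.0% ± 0.357 of it in normal and 37.4% ± 1.04 in high glucose. Without Col3a1, a setting added after the data had been seen, the ratios in high glucose were 64.3% of normal for P4ha, 79.3% for Plod, 83.0% for P3h and 86.8% for Serpinh1, and the groups still did not overlap. Col3a1 rose from 12421 ± 651 to 32515 ± 1662 CPM (log2 fold change 1.39, SE 0.061, adjusted P = 1.4e-07). Col1a1 and Col1a2, the chains of type I collagen, had log2 fold changes of 0.76 and 0.48 and Col5a1 of 0.59, all called higher. Col4a1, a chain of basement membrane collagen, had a log2 fold change of 0.03 and was not called (adjusted P = 0.724). Other type IV chains differed from it. Col4a2 (848 and 988 CPM, 0.22, adjusted P = 0.0103) and Col4a5 (31.7 and 38.8 CPM, 0.29, adjusted P = 0.00512) were called higher. Col4a6, under 1 CPM, was not called. These 3 chains were named after their values were seen. Of the 29 tested chains, 19 were called higher and 2 lower, against 16.9% and 14.5% of all tested genes, with a median log2 fold change of 0.48. After removal of the trend on GC content and length that median was 0.29, and in the same setting Plod2 had a log2 fold change of 0.63 and Serpinh1 one of 0.34. The 2 lower chains, Col7a1 and Col8a1 (named after their values were seen), fell by 0.93 and 0.15 on the log2 scale. By size of change the list was led by Col6a5 (1.58), Col3a1, Col4a3 (1.24) and Col4a4 (1.06), of which Col6a5, Col4a3 and Col4a4 stayed under 1.5 CPM in group mean. Col4a3 shares 563 exonic bases with an antisense gene.

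The partners of the hydroxylases mostly did not pass the test. P4hb, the beta subunit of prolyl 4-hydroxylase, measured 1777 ± 121 CPM in normal glucose against 1724 ± 49.4 CPM at 20 mmol/L, a log2 fold change of -0.04 (adjusted P = 0.623). Ppib, which encodes cyclophilin B, was the only one of 6 partners called, rising from 273 ± 14.2 to 316 ± 5.53 CPM (log2 fold change 0.21, adjusted P = 0.0142). Ppib shares 825 exonic bases with Snx22 on the opposite strand. Crtap (0.05), P3h4 (0.09), Fkbp10 (-0.01), which binds lysyl hydroxylase 2, and Tmem38b (0.16) had log2 fold changes with adjusted P of 0.475, 0.268, 0.898 and 0.153. The groups of Crtap, P3h4, Fkbp10, Tmem38b and P4hb overlapped. The median of the 6 partners was 0.068 and turned to -0.047 with scaling by library size alone. Among the collagen glycosyltransferases, Colgalt1 measured 212 ± 10.5 and 213 ± 3.34 CPM (log2 fold change 0.01, adjusted P = 0.941), Pgghg was called higher (0.16, adjusted P = 0.0397) and Colgalt2 had too few counts to be tested.

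Further along the pathway, 4 of 15 export genes and 11 of 12 tested processing genes were called, against 31.4% of all tested genes. Export had 3 higher (20.0%; Creb3l1 0.41, Fkbp7 0.25, Mia3 0.16) and 1 lower (6.67%; Canx -0.20), near or below the 16.9% and 14.5% of all tested genes, with a median of -0.015 that changed sign in 3 alternative settings. Creb3l1 encodes a membrane-bound transcription factor of collagen-secreting cells, Mia3 the TANGO1 receptor that loads procollagen for transport, and Canx the chaperone calnexin. Processing, which covers the propeptide proteases, their enhancers and the lysyl oxidases that cross-link collagen, had 7 higher and 4 lower (58.3% and 33.3%), with a median of 0.30 that was 0.18 with scaling by library size alone. Its largest changes were those of Pcolce2 (-1.33), Tll1 (-1.17), Adamts3 (0.64) and Pcolce (0.41), of which Pcolce was the abundant one at 1087 ± 59.4 and 1449 ± 24.8 CPM. Pcolce and Pcolce2 encode enhancers of the C-propeptide protease, Tll1 a protease of that kind and Adamts3 a protease of the N-propeptide.

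For the cofactor and cosubstrate list, 4 of 17 genes were higher and 3 lower (23.5% and 17.6%, near the 16.9% and 14.5% of all tested genes), with a median of 0.018 whose sign changed in 10 of the alternative settings. Slc39a14, a transporter of zinc and iron, rose by 0.54 (734 ± 43.1 to 1069.6 ± 6.26 CPM), Idh2, a mitochondrial enzyme that makes 2-oxoglutarate, rose by 0.36, and Got1, an aminotransferase that uses it, fell by 0.47. Other 2-oxoglutarate oxygenases had 8 of 17 higher and 2 lower (47.1% and 11.8%), with a median of 0.15 that was 0.031 with scaling by library size alone, led by Tet1 (0.69), Egln3 (0.58), Tet2 (0.52) and P4htm (0.35). Egln3 hydroxylates the hypoxia-inducible factors, Tet1 and Tet2 oxidise methylcytosine, and P4htm is a membrane prolyl hydroxylase counted in both of these lists. Egln3 averaged 13.7 CPM in normal and 20.6 CPM in high glucose. Its more abundant relative Egln1 fell (125 and 105 CPM, log2 fold change -0.26, adjusted P = 0.00222). Egln2 was not called (-0.01, adjusted P = 0.952). Egln1 and Egln2 were named after their values were seen. Of the 21 identifiers of the hypoxia-inducible list, 10 were lower and 4 higher (47.6% and 19.0%, against 14.5% and 16.9% of all tested genes), with a median of -0.22. Aldoa accounts for 2 of these identifiers. Its abundant one was called lower (1443 and 1135 CPM), and the other was called higher at only 0.396 and 0.556 CPM. Pgk1 (-0.65), Eno1 (-0.60) and Pgam1 (-0.58) fell, all glycolytic enzymes with related copies in the genome that could share reads. Egln3, also on this list, rose, as did Adm (0.25) and Pfkfb3 (0.31). The other 7 identifiers were not called, among them Vegfa (-0.08), Slc2a1 (-0.04) and Ldha (-0.09). Adm, Pfkfb3, Vegfa, Slc2a1 and Ldha were named after their values were seen. In the same samples P4ha1 and P4ha2 fell and Plod2 rose. Whether these changes relate to those of the hypoxia-inducible list was not tested.

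**Figure D5:**
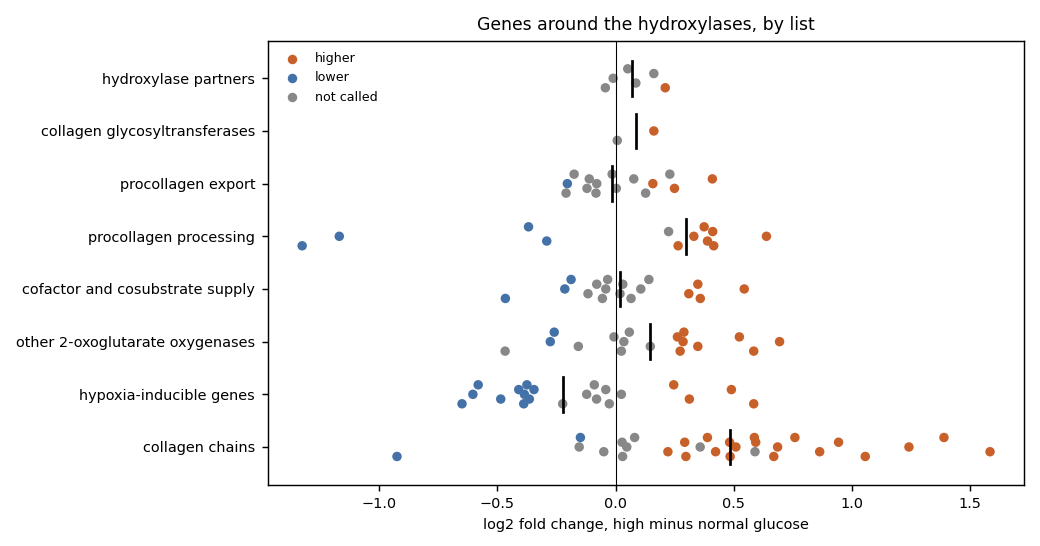
Log2 fold change in high against normal glucose (horizontal axis) of each tested gene in 8 lists around the hydroxylases, coloured by call, with a black line at each list's median. Collagen chains (median 0.48) and processing genes (0.30) lie mostly to the right of 0, and hypoxia-inducible genes (-0.22) mostly to the left.

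Across all 8 lists, 45 of 115 identifiers were called higher and 22 lower (39.1% and 19.1%, against 16.9% and 14.5% of all tested genes). With scaling by library size alone, which moved the median of all tested genes by -0.115, these numbers were 33 and 35, beside 1819 and 4884 of all 19015 tested genes.

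Some markers of cell types moved with the groups, and their part in the results was not tested. The counts below stand beside 16.9% higher and 14.5% lower among all tested genes. Of the 14 fibroblast markers, 9 were called higher and 3 lower (64.3% and 21.4%). Of 9 tested endothelial markers, 2 were higher and 3 lower (22.2% and 33.3%). Of 8 smooth muscle and pericyte markers, 1 was higher and 5 lower (12.5% and 62.5%), with sums of 634 to 709 CPM in normal and 533 to 560 CPM in high glucose. Adipocyte markers summed to 92.1 to 94.2 and 114 to 120.4 CPM (3 of 4 tested higher), macrophage markers to 17.3 to 19.4 and 26.8 to 27.7 CPM (1 of 4 tested higher, 2 lower) and lymphatic markers to 370 to 374 and 231 to 241 CPM (1 of 3 tested lower, Pdpn, which fibroblasts also express). The macrophage sum rose through Cd14 alone (9.47 and 21.1 CPM). Csf1r (5.62 and 3.38 CPM) and Cd68 (1.46 and 1.06 CPM) fell, and Lyz2 was not called. Keratinocyte markers summed to at most 5.04 CPM in any sample, and 1 of 3 tested was higher: Krt5 (log2 fold change 2.95, adjusted P = 0.00148), with 2 counts in each normal glucose sample and 12 to 23 in the others. Among defining markers, Krt1, Cdh1 and Adgre1 had at most 3 counts in a sample, Lep at most 4, and Ptprc was at 0 in 5 of the 6 samples. Krt14 had 0 to 2 counts in normal and 9 to 35 in high glucose.

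P3h2, the gene with the largest change, was compared with the 12479 genes that averaged 1 or more in log2 CPM. Those whose log2 CPM followed it most closely over the 6 samples were Dock1, Plxna2 and Herc2 (Pearson's r = 0.9992 each). Their log2 fold changes were 0.47, 1.03 and 0.72. This is a description only, as all 4 genes were called higher and the 6 points fall into the 2 glucose groups.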

How the data were processed

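PolyA RNA from 6 samples was sequenced. Trimmomatic was used by the authors for trimming and HISAT2 for alignment to GRCm38, and they deposited 1 unnormalized StringTie count per gene and sample. Tool versions, annotation release and strand setting are not given in the sources used here. The methods name a QIAGEN kit and an Illumina HiSeq, whereas the labels name TRIzol and DNBSeq. Symbols were matched for 55141 of the 55487 identifiers, and the other 346 held 0.034% of the counts. Positions and exon lengths came from GENCODE for GRCm38, and promoters from RefSeq (GRCm38.p6).

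The counts were filtered by filterByExpr (at least 10 counts in enough samples and 15 in total), scaled by TMM and compared with the quasi-likelihood test without covariates (edgeR 4.0.16 under R 4.3.3). Benjamini-Hochberg adjustment covered 19015 genes, and the threshold was 0.05. The coefficient of variation between replicates was 8.44%. Intervals of fold changes are for single genes and are not adjusted. A floor of 3 counts corresponded to 0.0204 to 0.0250 CPM. Shares and ratios were tested by 2-sided exact permutation in SciPy 1.17.1. The fit was tested on simulated counts. Alternatives were other scalings, filters and tests (DESeq2 1.42.0 among them), halved counts (both reads of a pair may have been counted), the replicate block, a correction for GC content and length (mgcv 1.9.3), other lengths and each sample left out.

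The 10 genes and the lists were chosen with earlier results of these data known. Genes named are the 10, up to 4 called genes per list with the largest change, partners in complexes with the 10, 5 collagen chains and the 3 genes most like P3h2. Genes said above to be named after their values were seen come in addition to these. Replicates of a group differed by more than sampling noise (chi-square per degree of freedom at least 9.03).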

Additional observations from a re-analysis of the deposited data

How the results depend on the processing

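Across 18 alternative fits, none of the 10 genes changed direction, and P4ha2, Plod2, P3h2, P3h3 and Serpinh1 stayed called in all 18. The other fold changes crossed the threshold as follows. Scaling by library size alone gave 0.22 for P4ha3, 0.10 for Plod3 and -0.19 for Plod1, and moved P3h1 to 0.04, P4ha1 to -0.31, P3h3 to 0.20 and Serpinh1 to 0.23 with no change of call. This scaling shifted the median of all genes by -0.115, and it called 4 of the 10 genes higher and 3 lower, and 1819 and 4884 of all genes (3212 and 2757 with TMM). Its share of calls that were lower was 72.9%, against 46.2% with TMM and 56.5% with upper quartile scaling. Removal of the trend on GC content and length gave 0.13 for P3h1 and -0.12 for Plod1, both then called, but not with the replicate block as well. With 1 sample left out at a time, log2 fold changes ranged from -0.23 to -0.19 for P4ha1, from 0.18 to 0.23 for Plod3, from 0.10 to 0.18 for P3h1, from 0.22 to 0.40 for P4ha3 and from -0.11 to -0.05 for Plod1, and 5 to 7 of the 10 genes were called higher and 1 to 2 lower. Those fits called 1988 to 3149 of 19258 to 19601 tested genes higher and 2048 to 3065 lower. At an adjusted P under 0.01 in the main fit, Plod3 (0.0107) and P4ha1 (0.0140) lost their call, which left 1 gene lower. The other higher genes stayed called. Requiring a log2 change of at least 1 in size left 0 higher and 0 lower. Scaling by library size alone called 35 genes of the pathway lists lower instead of 22. The difference in the Plod3 share, 0.096 percentage points, reversed without normal glucose replicate 2 (-0.253), without high glucose replicate 1 (-0.402) and without high glucose replicate 3 (-0.0385), and ranged up to 0.730. The other shares and all ratios to collagen kept their sign under every setting tried on them. Those were the length used, each sample left out and, for the ratios, the collagen chains counted. The correction for GC content and length was not applied to shares or ratios. The causes were not tested. Medians of the lists moved by more than an error set for each median in 48 of 144 values. That error is not the spread of the genes in a list. For the hypoxia-inducible list it was 0.0076, and that list gave 15 of the 48.

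The labels number the samples 1 to 3 in both groups, and deviations of same-numbered samples correlated at -0.025, 0.0038 and 0.013, so the numbers were not taken as pairing. With the replicate block, the log2 fold changes were 0.94 for P3h2, 0.61 for Plod2 and -0.19 for P4ha1, 6 of the 10 genes were higher and 2 lower, no call of the 10 changed, and 2909 of all genes were higher and 2418 lower. Depth limits none of the 10 genes strongly, since the lowest count was 976.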
